A study of Mus musculus with 15 samples.

Results

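The cytosolic ribosomal protein genes encode the protein part of the ribosome that translates nuclear-encoded mRNA. They were taken here as every gene symbol of the form Rpl or Rps with a number, or Rplp0 to Rplp2, with a mean of at least 1 FPKM over the 15 libraries. FPKM is a count of sequenced fragments scaled by transcript length and by the library's mapped fragments. Kinases of the Rps6k family, mitochondrial ribosomal proteins and symbols marked as pseudogenes were left out. Of 20089 genes analysed, 83 had such a symbol and 81 reached the level: 47 of the large subunit, 31 of the small subunit and the 3 proteins of the acidic stalk. Just above the limit stood Rpl39l at a mean of 2.66 FPKM and Rpl32l at 3.05 FPKM. Below it were Rpl3l, whose values ran from 0 to 0.298 FPKM, and Rpl10l, which was listed at 0 in every library. The Rpl3l protein is known from muscle and Rpl10l from testis. GENCODE annotates Rpl32l as a processed pseudogene, although its symbol does not say so.

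The libraries were made from mRNA of primary bone marrow-derived macrophages from wild-type C57BL/6 mice, with 3 libraries in each of 5 groups. All groups were grown with M-CSF, the cytokine that turns marrow progenitors into macrophages. The Control group received nothing else, and the other groups received 100 ng/mL of RANKL, the cytokine that drives macrophages to become osteoclasts, or 100 ng/mL of lipopolysaccharide (LPS), a bacterial cell wall component that activates macrophages, for 4 h or 72 h. The series' design text gives 3 days of M-CSF. The study's general protocol for such cultures, described for other mice aged 4 to 8 weeks, gives 4 days at 50 ng/mL. No group was kept for 72 h in M-CSF alone, so the length of culture and the stimulus cannot be told apart at 72 h. The labels do not say that the 3 libraries of a group came from separate mice or cultures, so the p-values measure the spread between these libraries, which may be technical.

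A ribosome has a small subunit, which reads the mRNA, and a large subunit, which joins the amino acids. Its proteins are needed in near-equal amounts, and their mRNAs are among the most abundant of the cell. Most of these mRNAs start with a C followed by an unbroken run of pyrimidines, the terminal oligopyrimidine (TOP) motif. Through this motif the kinase complex mTORC1 and the RNA-binding protein LARP1 control how strongly they are translated and how stable they are. Elongation factors and a few other translation genes carry the same motif.

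The starts of the genes are shown because this motif lies there and because members that moved less than the rest after LPS could be set beside members that moved more. RefSeq promoter windows (GRCm38.p6), which run from 250 bases before to 50 bases after each annotated start, were held for 61 of the 81 genes. A C at the annotated start followed by at least 4 pyrimidines was present in 14 of the 61 genes (23.0%), and in 247 of 8912 other genes tested (2.77%). Counting such a run within 10 bases on either side of the start, 38 of the 61 genes had it (62.3%), against 37.5% of the other genes tested and 30.7% of all 32851 windows. The stretches below run from 10 bases before the annotated start over 30 bases, on the coding strand. Capitals mark the C and its pyrimidine run, where the C lies within 10 bases of the start. At most 1 run is marked in a stretch, the one at the start where there is one, and pyrimidines just before it or a run that begins further on, as in Rplp0, are not marked. For a gene with several annotated starts, the one with the longest run is shown. The first 14 genes are all those with a window that fell further than the median ribosomal protein gene after 72 h of LPS. The last 6 are all those with a window that fell less or not at all. Both sets were taken at an adjusted p under 0.05, adjusted over all genes tested and not among the ribosomal protein genes alone.
Rpl22l1 (chr3:28805498-28805527, plus strand): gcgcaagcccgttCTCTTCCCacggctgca
Rpl10a (chr17:28328461-28328490, plus strand): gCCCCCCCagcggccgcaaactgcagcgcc
Rps6 (chr4:86857348-86857377, minus strand): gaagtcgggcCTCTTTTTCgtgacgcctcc
Rps7 (chr12:28635934-28635963, minus strand): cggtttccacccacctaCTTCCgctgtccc
Rpl14 (chr9:120571507-120571536, plus strand): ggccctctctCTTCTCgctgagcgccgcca
Rps15a (chr7:118116128-118116157, minus strand): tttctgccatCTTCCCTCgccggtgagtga
Rps21 (chr2:180257369-180257398, plus strand): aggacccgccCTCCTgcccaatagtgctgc
Rps16 (chr7:28350679-28350708, plus strand): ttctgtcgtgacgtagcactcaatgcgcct
Rpl5 (chr5:107900518-107900547, plus strand): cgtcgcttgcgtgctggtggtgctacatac
Rps23 (chr13:90923112-90923141, plus strand): cggctgggcggggCTTCCCgcaatgccttg
Rpl10 (chrX:74270806-74270835, plus strand): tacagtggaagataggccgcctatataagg
Rpl13a (chr7:45128726-45128755, minus strand): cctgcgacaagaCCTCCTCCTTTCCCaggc
Rpl28 (chr7:4792955-4792984, plus strand): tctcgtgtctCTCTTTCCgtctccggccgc
Rps18 (chr17:33955646-33955675, minus strand): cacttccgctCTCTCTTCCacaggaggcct
Rplp0 (chr5:115559457-115559486, plus strand): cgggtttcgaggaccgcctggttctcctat
Rpl9 (chr5:65391412-65391441, minus strand): gggccctgacggattacaagaacgtgatga
Rpl41 (chr10:128549149-128549178, minus strand): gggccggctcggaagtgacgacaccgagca
Rpl24 (chr16:55966265-55966294, plus strand): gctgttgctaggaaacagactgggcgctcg
Rps2 (chr17:24720053-24720082, plus strand): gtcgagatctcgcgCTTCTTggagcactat
Rpl7l1 (chr17:46782637-46782666, minus strand): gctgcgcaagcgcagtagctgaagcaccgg

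The 6 genes of the second set were those with a window among the 8 that stood above the median ribosomal protein gene. This was after 72 h of LPS, at an adjusted p under 0.05 (limma, Benjamini-Hochberg over all genes tested). A run near the annotated start was present in 1 of these 6 (Rps2) and at the start itself in 0. Of the 16 genes that stood below the median ribosomal protein gene, 14 had a window, 11 of these had a run near the start and 6 had it at the start. Among the 41 remaining genes with a window the counts were 26 and 8. These counts describe annotated starts, which need not be the starts used in these cells, and they were set side by side after the fold changes were known, with no test. The median log2 fold change after 72 h of LPS was -0.99 in the 14 genes with a run at the start and -0.83 in the 47 without, and the ranges overlapped (-1.32 to -0.43 and -1.52 to 0.35). For a run near the start the medians lay closer together, at -0.88 in the 38 genes with it and -0.82 in the 23 without. The response to 72 h of RANKL was alike with and without a run at the start, with medians of 0.39 and 0.41.

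The letters CCGGAAG, which hold the core bound by ETS factors such as GABPA, were found on either strand in 25 of the 61 genes with a window (41.0%). They were found in 19.0% of the other genes tested and in 8.86% of all windows. AAGATGG, the core of YY1 sites, was found in 10 of the 61 genes (16.4%), in 8.17% of the other genes tested and in 6.34% of all windows. A gene counted if any of its windows held the letters, whereas the shares of all windows count each window by itself. After 72 h of LPS the median log2 fold change was -0.85 both with and without CCGGAAG. It was -1.0 in the 10 genes with AAGATGG and -0.85 in the 51 without, with overlapping ranges (-1.28 to 0.35 and -1.52 to -0.07). A match of letters is not a measured binding site.

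The 81 genes spanned a wide range of levels. Over all libraries the highest means per length were those of Rplp1, a stalk protein, at 1658 FPKM, Rpl41, the smallest ribosomal protein, at 1388 FPKM, Rps29 at 1203 FPKM, Rpl32 at 861 FPKM and Rps23 at 819 FPKM. The lowest were Rpl7l1 at 42.3 FPKM, Rpl22l1 at 29.4 FPKM, Rpl21 at 25.6 FPKM, and Rpl32l and Rpl39l, named above. Except for Rpl21, these are paralogs or retrocopies of another ribosomal protein gene. The remaining 76 genes had means from 56.9 to 1658 FPKM. Ribosomal protein genes have many near-identical copies in the mouse genome, and how the study's counting divided reads among copies is not given in the sources used here, so the level of each gene is uncertain to that extent. Rpl32l and Rpl39l had fewer than 100 fragments in some library, and the other 79 had at least 100 fragments in each.

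Together the 81 genes held 7.82 ± 0.717% (SD, n = 3) of all FPKM in Control. The Control libraries gave 7.03, 8.44 and 7.98%, and the RANKL 4 h libraries 7.87, 8.63 and 7.59%, which overlapped with them. With RANKL for 72 h the share was 10.5, 10.7 and 11.9%, above every Control library. After 4 h of LPS it was 6.57, 7.06 and 6.11%, so the highest of these libraries lay just above the lowest Control library. After 72 h of LPS it was 3.96, 4.57 and 5.67%, below every other library. As a share of whole fragments, recovered from the steps of the FPKM values, the group means were 2.91% in Control, 3.91% after 72 h of RANKL and 1.75% after 72 h of LPS, in the same order. With 3 libraries against 3, an exact two-sided permutation test can reach no p below 0.10, so these shares carry no test. In bulk RNA, fewer cells of a type and less RNA per cell cannot be told apart.

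**Figure D1:**
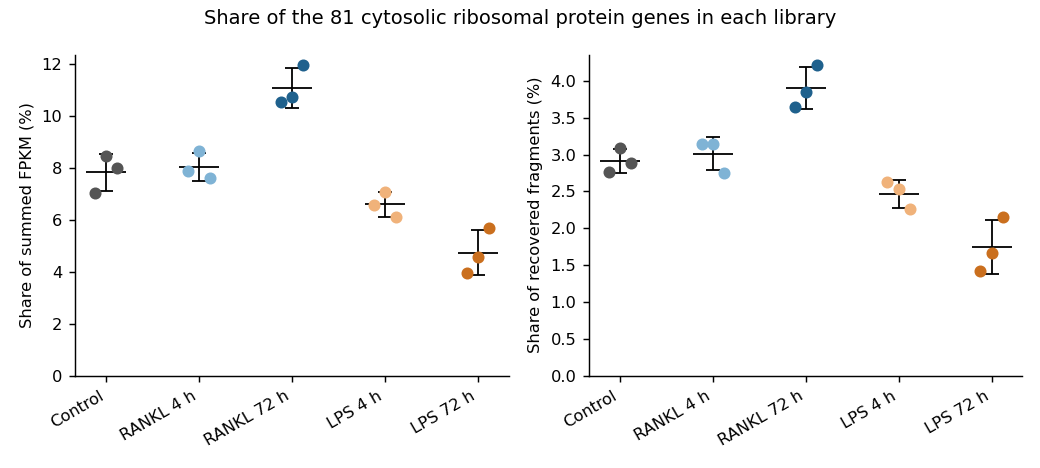
Percent of summed FPKM (left) and of recovered fragments (right) held by the 81 cytosolic ribosomal protein genes. Each point is a library, bars are the mean and SD of 3; the RANKL 72 h libraries lie at 10.5 to 11.9% of FPKM and the LPS 72 h libraries at 3.96 to 5.67%.

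The labelled cells carried their markers. All 8 macrophage markers listed were detected, with summed levels from 6046 to 17490 FPKM. With 72 h of RANKL 9 of 10 osteoclast genes rose, and after 4 h of LPS 10 of 10 LPS response genes rose. Neutrophil granule genes were also abundant: their summed level over 9 genes was 7912 to 24340 FPKM in Control, 1849 to 7451 FPKM after 72 h of RANKL and 151.6 to 1816 FPKM after 72 h of LPS. Basophil and mast cell markers (7 of 7), B cell markers (5 of 7) and erythroid markers (4 of 4 tested) fell in both 72 h groups against Control. Replicate 3 of the LPS 72 h group stood apart from the other two of its group, with the 1816 FPKM of neutrophil granule genes against 151.6 and 186.3 FPKM, and with 459.2 FPKM of 10 stromal markers against 80.03 and 85.25 FPKM. It was left out in turn for the counts of changed ribosomal protein genes and for their share of FPKM. The gene lists, the paralog shares and the centring on the median ribosomal protein gene were not repeated without it. The libraries held 18306184 to 20330207 recovered fragments on the genes analysed.

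Most of the set fell in the 72 h LPS libraries. A gene was called changed by the limits the study set: an unadjusted p under 0.05 together with a fold over 1.5 or under 0.66 (limma on log2 of FPKM plus 0.1, over 11743 genes). By this rule 63 of the 81 genes fell and 0 rose against Control, whereas 16.1% of all genes tested fell and 14.9% rose. At a Benjamini-Hochberg adjusted p under 0.05, with no fold limit, 71 of the 81 were lower, against 17.6% of all genes tested. The median log2 fold change of the 81 genes was -0.86, a fold of 0.553, while that of all genes tested was 0.08. All 3 LPS libraries lay below all 3 Control libraries for 74 of the 81 genes (91.4%), and for 21.0% of all genes tested. Among 574 other genes of high level (mean of 100 FPKM or more), 23.3% fell and the median was -0.15.

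Rpl22l1, a paralog of the large-subunit protein Rpl22, fell the most in log2 terms (chromosome 3, 28805436 to 28807424, GRCm38). Its FPKM was 29.8, 28.8 and 29.3 in Control and 8.75, 10.7 and 11.05 after 72 h of LPS. These groups were far apart, with a log2 fold change of -1.52 ± 0.21 (SE) and an adjusted p of 1.1e-04 (limma). Rpl10a, a protein beside the site where used tRNA leaves (chromosome 17, 28328471 to 28331033), had 248, 270 and 256 FPKM in Control and 73.8, 108 and 96.6 FPKM after LPS. The log2 fold change was -1.49 ± 0.13, the smallest error among the 5 largest falls. Rps6, the small-subunit protein that S6 kinase phosphorylates downstream of mTORC1, had 275, 288 and 246 FPKM in Control and 79.9, 104 and 151 FPKM after LPS. Its groups did not overlap, and its log2 fold change was -1.32 ± 0.18. Rps7 followed at -1.28 ± 0.21 and Rpl14 at -1.22 ± 0.18, with adjusted p-values of 0.00043 and 0.00024 (limma).

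Some other members with known extra roles fell as well, by less than the genes above. Rpl5 and Rpl11, which bind the ribosomal RNA of the central protuberance and, when free, the p53 regulator MDM2, had log2 fold changes of -1.14 and -0.86. Rpl13a, which also takes part in translational silencing of inflammatory mRNAs in monocytes, was at -1.10, and Rps27a, made as a fusion with ubiquitin, at -1.12. All of these 4 passed the fold and p thresholds, and they were named for their roles after their values were seen. By subunit, 37 of 47 large-subunit genes, 25 of 31 small-subunit genes and 1 of 3 stalk genes fell, with medians of -0.85, -0.93 and -0.53.

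The 18 genes that did not pass in this comparison included Rplp0, the base of the stalk that recruits translation factors, at -0.09 ± 0.12, Rps2 at -0.23 ± 0.12, Rpl9 at -0.29 ± 0.12 and Rpl41 at -0.34 ± 0.15 on the log2 scale, of which Rplp0, Rps2 and Rpl9 were chosen after their values were seen. Rplp0 had 655, 731 and 715 FPKM in Control and 615, 655 and 705 FPKM after 72 h of LPS, so its groups overlapped. The paralogs and retrocopies Rps27l, Rpl32l and Rpl39l gave -0.27 ± 0.16, -0.43 ± 0.31 and -0.07 ± 0.46. Rpl7l1, a nucleolar relative of Rpl7 found in immature large subunits (chromosome 17, 46773907 to 46782672), was the only one of the 81 with a positive value, 0.35 ± 0.19 at an adjusted p of 0.16 (limma). Its 3 LPS libraries gave 72.4, 60.4 and 37.4 FPKM against 42.2, 47.0 and 40.0 FPKM in Control, so replicate 3 lay below Control and the other two above.

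To compare members with each other, each library was also centred on its median ribosomal protein gene, a step added after the data were seen. After this centring 8 genes were relatively higher and 16 relatively lower after 72 h of LPS than in Control at an adjusted p under 0.05. The higher ones were Rpl7l1 (1.13 ± 0.29), Rplp0 (0.69 ± 0.14), Rps2 (0.55 ± 0.16), Rpl9 (0.49 ± 0.13), Rpl41 (0.44 ± 0.13), Rps20, Rpl32 and Rpl24. The lowest were Rpl22l1 (-0.74 ± 0.20), Rpl10a (-0.71 ± 0.15), Rps6 (-0.54 ± 0.13), Rps7 (-0.50 ± 0.14) and Rpl14 (-0.44 ± 0.13). The adjustment ran over all genes tested, and centring on the median ribosomal protein gene shifts the other genes as well. It therefore changed the p-values little, from 0.028 to 0.042 for Rpl28 (limma). How many of these 24 genes would pass an adjustment among the ribosomal protein genes alone was not tested. This centred fit was also not repeated with single libraries left out. Those outside the largest falls, the paralogs and the highest levels were chosen after their values were seen.

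**Figure D2:**
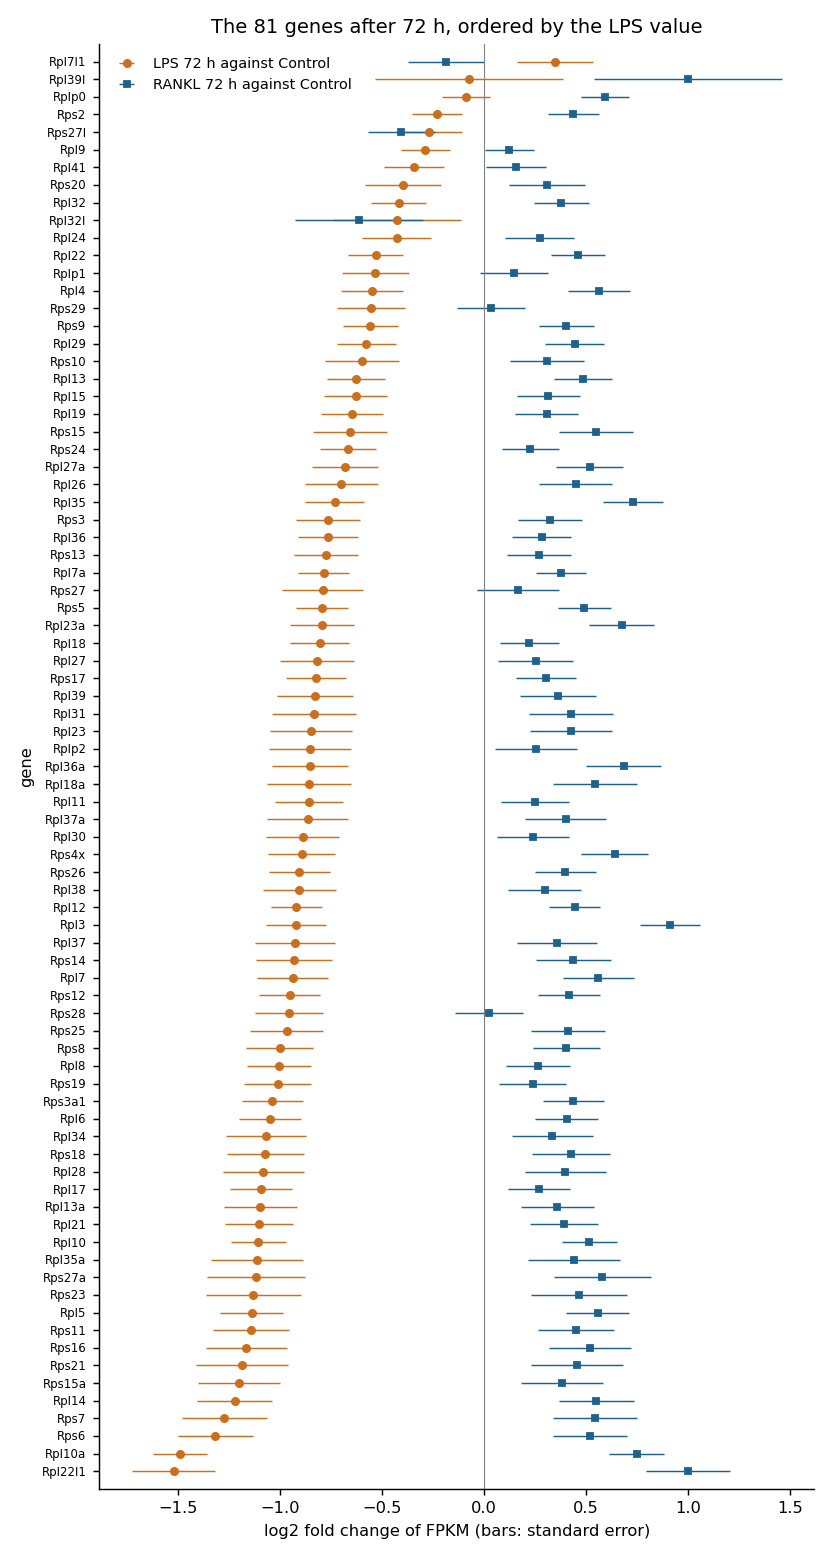
Log2 fold change (points) with standard error (bars) of each of the 81 genes after 72 h of LPS and after 72 h of RANKL, both against the same 3 Control libraries, ordered by the LPS value. Rpl22l1 at the bottom lies at -1.52 and 1.0, and Rpl7l1 at the top at 0.35 and -0.19.

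The size of the LPS fall differed between libraries of the group. The median over the 81 genes of the log2 difference from the Control mean was -1.22, -0.93 and -0.45 in the 3 libraries. Replicate 3 was the highest of its group for 75 of the 81 genes after 72 h of LPS, and likewise for 75 after 72 h of RANKL. Replicate 1 was the lowest for 74 genes with LPS and for 68 with RANKL. The LPS library nearest to Control, replicate 3, was the one with more neutrophil granule and stromal RNA, and the part of those cells in the result was not tested. Without it 71 genes fell and 1 rose, Rpl7l1, and without replicate 1, the lowest, 54 genes fell. All 10 cell cycle genes listed also fell after 72 h of LPS, with a median log2 fold change of -3.06, and their summed level was 152.8 to 163.7 FPKM in the 3 libraries against 392.7 to 598.0 FPKM in Control. Their part in the fall of the ribosomal protein genes was not tested.

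At 4 h of LPS, of the 81 genes 1 fell and 0 rose, whereas 41.0% of all genes tested fell and 8.75% rose. The gene was Rps27l, a paralog of Rps27 and a p53 target, with 82.6, 71.9 and 61.8 FPKM in Control and 52.5, 45.8 and 42.2 FPKM after LPS (log2 fold change -0.62 ± 0.16, adjusted p = 0.0052, limma). At an adjusted p under 0.05 alone, 6 genes were lower, against 50.1% of all genes tested: Rps27l, Rpl7l1, Rpl22, Rps19, Rpl18 and Rpl9. The median of the 81 genes was -0.23 and that of all genes tested was -0.52, so 79 of the 81 lay above the median gene. After each library was centred on its median gene the direction turned: the median of the 81 genes was 0.34, with 1 gene higher and 0 lower, against 17.4% and 14.3% of all genes tested. The gene called higher was then Rpl24. The 574 other genes of high level had a median of -0.26 without centring. With same-numbered libraries paired (replicate block) 2 genes fell, Rps27l and the low-level Rpl32l.

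Between 4 h and 72 h of LPS, 43 of the 81 genes fell and 1 rose, against 14.3% and 45.0% of all genes tested. The gene that rose was Rpl7l1, with 30.8, 32.4 and 30.2 FPKM at 4 h and the 3 values given above at 72 h (log2 fold change 0.81 ± 0.19, adjusted p = 0.0016, limma). All 3 later values lay above the earlier ones. The largest falls were those of Rpl10a (-1.17 ± 0.13), Rpl22l1 (-1.08 ± 0.21) and Rps6 (-1.06 ± 0.18). The median of the 81 genes was -0.61 and that of all genes tested 0.52. Without replicate 1 of LPS 72 h 25 fell, and without replicate 3 65 fell. Centred on the median gene, 76 fell and 0 rose, against 28.6% and 19.5% of all genes tested.

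After 4 h of RANKL no difference from Control was detected in the set. Of the 81 genes 0 changed in either direction, against 2.56% of all genes tested, and 0 of the 81 reached an unadjusted p under 0.05 in limma. The voom fit on recovered fragments also called 0. The log2 fold changes ran from -0.50 for Rpl32l, a gene with few fragments, to 0.20 for Rps27a, with a median of 0.04. Rpl10 and Rps15a were the 2 genes whose RANKL libraries all lay above Control, against 6.05% of all genes tested, and both had adjusted p-values of 1.

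Most of the set lay above Control, by small amounts, after 72 h of RANKL. By the fold and p thresholds 9 of 81 genes rose and 0 fell, against 20.2% and 9.04% of all genes tested, so this share of 11.1% was below the background. At an adjusted p under 0.05 without a fold limit 26 of 81 were higher (32.1%), against 20.8% of all genes tested. The median log2 fold change was 0.40, a fold of 1.32, against 0.16 for all genes tested and -0.20 for other genes of at least 100 FPKM. All 3 RANKL libraries lay above all 3 Control libraries for 72 of the 81 genes (88.9%), and for 33.1% of all genes tested. Most genes were thus above Control by less than the fold limit.

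The 9 genes that rose were Rpl22l1, Rpl39l, Rpl3, Rpl10a, Rpl35, Rpl36a, Rpl23a, Rps4x and Rplp0. Rpl22l1 had 55.7, 50.3 and 71.9 FPKM after 72 h of RANKL against the Control values given above. The log2 fold change was 1.0 ± 0.21 with an adjusted p of 0.0028 (limma). Rpl3, which lies at the peptidyl transferase centre, had 274, 380 and 339 FPKM in Control and 566, 619 and 671 FPKM after RANKL. Its groups were well separated, with a log2 fold change of 0.91 ± 0.15. Rpl10a went to 447, 399 and 456 FPKM, a log2 fold change of 0.75 ± 0.13. Rpl35 was at 0.73 ± 0.15, Rpl36a at 0.68 ± 0.19, Rpl23a at 0.67 ± 0.16, the X-linked Rps4x at 0.64 ± 0.16 and Rplp0 at 0.59 ± 0.12. Rpl39l, a testis-enriched paralog of Rpl39, had 5.29, 5.05 and 2.65 FPKM against 3.41, 1.47 and 1.63 FPKM in Control. Its groups overlapped, its adjusted p was 0.11, and it lost the call with a pseudocount of 0.01, without the filter on low values, without the variance trend, when centred on the median gene and without any of 4 single libraries.

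The genes below 0 on the log2 scale after 72 h of RANKL were Rpl32l (-0.61 ± 0.31), Rps27l (-0.41 ± 0.16) and Rpl7l1 (-0.19 ± 0.19), none of which passed. With same-numbered libraries paired (replicate block) 9 genes rose and 1 fell, Rpl32l, which also passed without Control replicate 1 or without RANKL 72 h replicate 3. Of the 5 genes with the highest means, Rplp1 (0.15 ± 0.17), Rpl41 (0.16 ± 0.15) and Rps29 (0.03 ± 0.17) had overlapping groups, whereas all RANKL libraries of Rpl32 (0.38 ± 0.14) and Rps23 (0.46 ± 0.23) lay above Control, and none of the 5 passed. The number called depended on the scale. Centred on the median gene it was 2 higher (Rpl22l1 and Rpl3) and 2 lower (Rpl32l and Rps27l), with 12.7% and 14.2% of all genes tested called higher and lower. Rescaled to equal sums of FPKM over all genes it was 23 higher, and to equal sums over the genes that are not members it was 37 higher. The centred median of the 81 genes was 0.18, still above 0. Against 4 h of RANKL, 8 genes were higher at 72 h and 0 lower, where 20.1% of all genes tested were higher. Stromal markers moved with RANKL as well: 6 of 10 rose, and their summed level was 389.1 to 1823 FPKM against 140.1 to 309.0 FPKM in Control, whose part in the result was not tested.

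**Figure D3:**
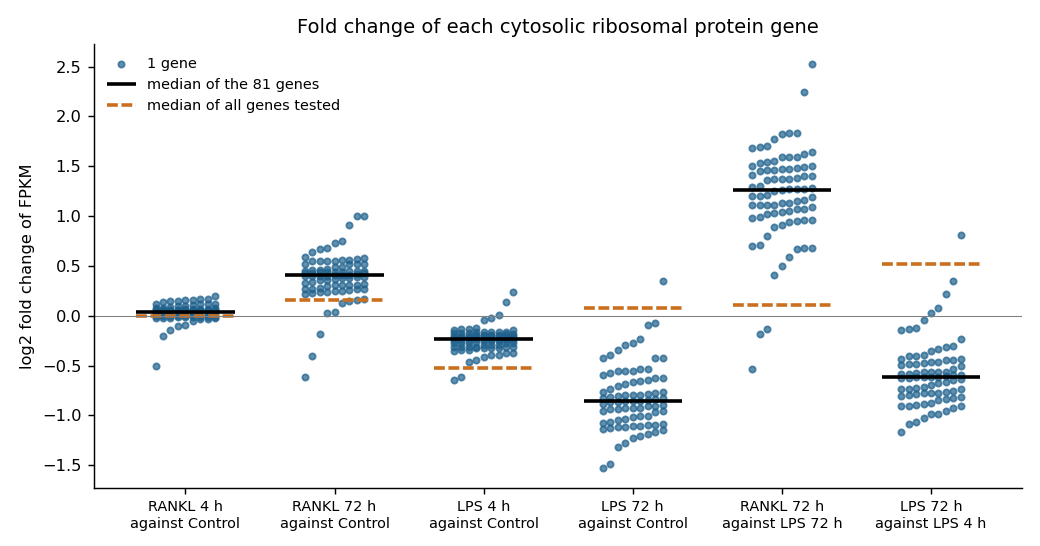
Log2 fold change of each of the 81 genes (points) in 6 comparisons, with their median (solid line) and the median of the 11743 genes tested (dashed line). The median of the 81 genes is at -0.86 after 72 h of LPS, at 1.26 for RANKL against LPS at 72 h, and at -0.23 after 4 h of LPS, where all genes tested are at -0.52.

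Set directly against each other at 72 h, the 2 stimuli separated nearly every gene of the set. With RANKL 76 of 81 genes were higher than with LPS and 0 were lower, whereas 25.1% of all genes tested were higher. The median log2 difference was 1.26, a fold of 2.40, and that of all genes tested was 0.11. All 3 RANKL libraries lay above all 3 LPS libraries for 77 of the 81 genes, and for 31.5% of all genes tested. Rpl22l1 differed by 2.52 ± 0.21, a fold of 5.75, Rpl10a by 2.24 ± 0.13, Rps6 by 1.84 ± 0.18, Rpl3 by 1.83 ± 0.15 and Rps7 by 1.82 ± 0.21 on the log2 scale. The 5 genes not called were Rpl9 and Rpl41, at 0.41 and 0.50, and Rps27l, Rpl32l and Rpl7l1, at -0.14, -0.19 and -0.53. Rpl7l1 was lower with RANKL at an adjusted p of 0.031 (limma), but its fold of 0.691 did not reach the limit and its groups overlapped. At 4 h, 1 gene, Rps27l, was higher with RANKL than with LPS (0.61 on the log2 scale), where 42.5% of all genes tested were higher, and at an adjusted p under 0.05 it was 10 genes against 50.8% of all genes tested. Centred on the median gene the median difference at 4 h turned from 0.28 to -0.29. Then 1 gene, Rpl24, was lower and 0 were higher, against 17.6% and 14.7% of all genes tested.

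Within a library the share of Rpl22l1 in the sum of Rpl22l1 and Rpl22 does not depend on the library's scale. It was 32.3, 28.7 and 30.9% in Control, 40.1, 35.7 and 41.7% after 72 h of RANKL and 17.8, 19.7 and 16.8% after 72 h of LPS. The 72 h libraries did not overlap with Control in either case, at an exact two-sided permutation p of 0.10, the smallest that 3 against 3 can give. After 4 h of either stimulus the shares overlapped with Control. Rpl22 itself had log2 fold changes of 0.46 ± 0.13 after 72 h of RANKL and -0.53 ± 0.13 after 72 h of LPS, smaller than those of its paralog in both.

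For Rpl7l1 the order of the groups was the opposite. It held 7.43 to 7.95% of the sum of Rpl7l1 and Rpl7 in Control, 4.18 to 5.41% after 72 h of RANKL and 9.20 to 26.3% after 72 h of LPS. After 4 h of LPS its share was 6.02 to 6.74%, below Control and so in the other direction from 72 h of LPS. None of these 3 groups overlapped with Control (exact permutation p = 0.10 for each, the smallest possible, n = 3 against 3). Rps27l held 9.83 to 14.5% of the sum with Rps27 in Control, 6.94 to 9.46% after 72 h of RANKL and 10.6 to 23.4% after 72 h of LPS, where the range overlapped with Control. Rpl36al, which the symbol rule did not take in, held 41.3 to 46.1% of its sum with Rpl36a in Control and 34.6 to 35.4% after 72 h of RANKL. Rpl39l stayed at 0.420 to 1.38% of its sum with Rpl39 over all groups. Reads that match both genes of a pair may have been divided between them.

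**Figure D4:**
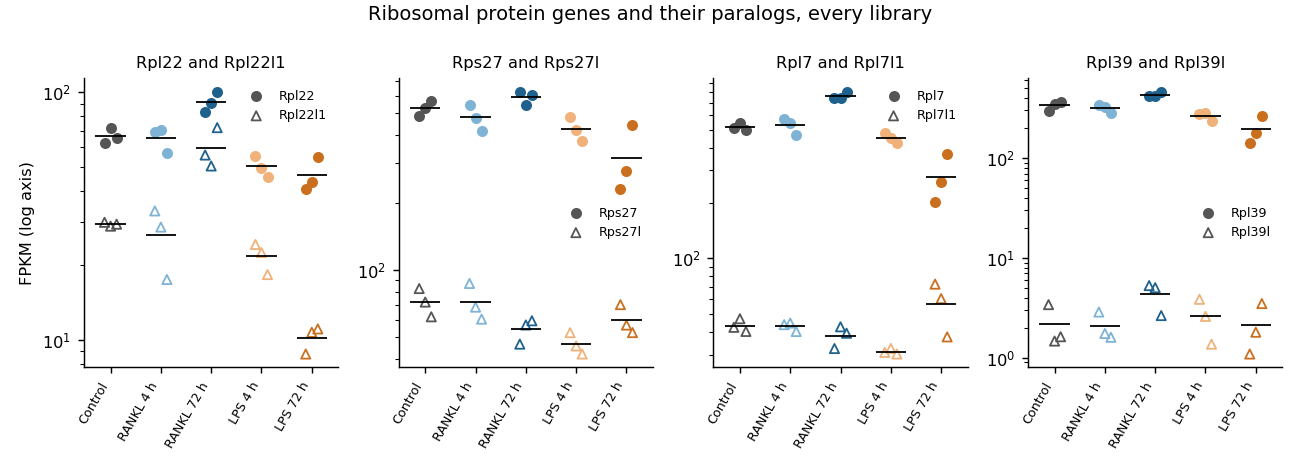
FPKM (log axis, ranges differ between panels) of 4 ribosomal protein genes (filled circles) and their paralogs (open triangles) in every library, with group means as lines. Rpl22l1 runs from 50.3 to 71.9 FPKM after 72 h of RANKL and from 8.75 to 11.05 FPKM after 72 h of LPS, whereas Rpl7l1 is at 37.4 to 72.4 FPKM after 72 h of LPS.

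Across the 15 libraries most members followed the median member closely. The Pearson correlation of log2 FPKM with the median member, given as a description over libraries that share groups, had a median of 0.978 and was at least 0.9 for 69 of the 81 genes. These values include the group differences given above, and each gene is itself part of that median. The share of other genes with such a correlation was not computed. The lowest were Rpl7l1 (-0.581), Rpl32l (0.0290), Rps27l (0.0566), Rpl39l (0.560), Rplp0 (0.700) and Rps2 (0.774).

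For the lists that follow, the shares of all genes tested were 20.2% higher and 9.04% lower after 72 h of RANKL, 14.9% higher and 16.1% lower after 72 h of LPS, and 8.75% higher and 41.0% lower after 4 h of LPS, where the median gene was at -0.52. Of 16 elongation factors and other TOP mRNA genes, 6 rose and 0 fell after 72 h of RANKL, and 6 fell and 0 rose after 72 h of LPS, with medians of 0.52 and -0.53. Eef1a1, the factor that brings aminoacyl-tRNA to the ribosome, was at -2.18 after 72 h of LPS, Eef1b2 at -1.0, Tpt1 at -0.96 and Naca at -0.86. After RANKL, Pabpc1, the poly(A)-binding protein, was at 0.96, Eif4b at 0.89, and Eef2, the translocation factor, at 0.77. Of 5 other ribosome genes tested, 3 fell and 0 rose after 72 h of LPS. These were Rack1, Fau and Rpsa, ribosomal components with other symbols, at -0.99, -0.75 and -0.64. Between the stimuli at 72 h, 3 of the 5 were higher with RANKL than with LPS and 1 was lower.

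Of 77 mitochondrial ribosomal protein genes, 38 fell and 0 rose after 4 h of LPS (median -0.59), near the values of all genes tested, whereas after 72 h of LPS 6 rose and 2 fell (median 0.16) and after 72 h of RANKL 2 rose (median 0.06). Of 46 ribosome biogenesis factors, 19 fell and 2 rose after 4 h of LPS, a share of falls close to that of all genes tested, 2 rose and 3 fell after 72 h of LPS, and 0 changed after 72 h of RANKL. The 3 that fell at 72 h of LPS were Dkc1 (-1.07), Gar1 (-0.84) and Nop58 (-0.67), all of the small nucleolar RNP complexes. This share of falls was below the 16.1% of all genes tested, and the median of the 46 was 0.06. Of 11 RNA polymerase I genes, which transcribe ribosomal RNA, 5 fell after 4 h of LPS, again near the share of all genes tested, and 0 after 72 h. Of 28 translation initiation factors, 4 fell and 2 rose after 4 h of LPS, 2 fell and 2 rose after 72 h of LPS, and 0 changed after 72 h of RANKL. Ribosomal RNA and protein were not measured.

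Of 20 genes of the mTORC1 pathway and of TOP mRNA control, 2 rose and 7 fell after 4 h of LPS (median -0.53), 5 rose and 0 fell after 72 h of RANKL, and 1 rose (Tsc1, adjusted p = 0.051, limma) and 1 fell after 72 h of LPS. The one that fell was Myc, a transcription factor of ribosomal protein and biogenesis genes, at -2.15, and it was at 0.75 after 72 h of RANKL. Larp1, which binds the TOP motif, was at 1.06 after 4 h of LPS, at 0.06 after 72 h of LPS and at -0.31 after 72 h of RANKL, and passed the test only in the first of these 3.

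**Figure D5:**
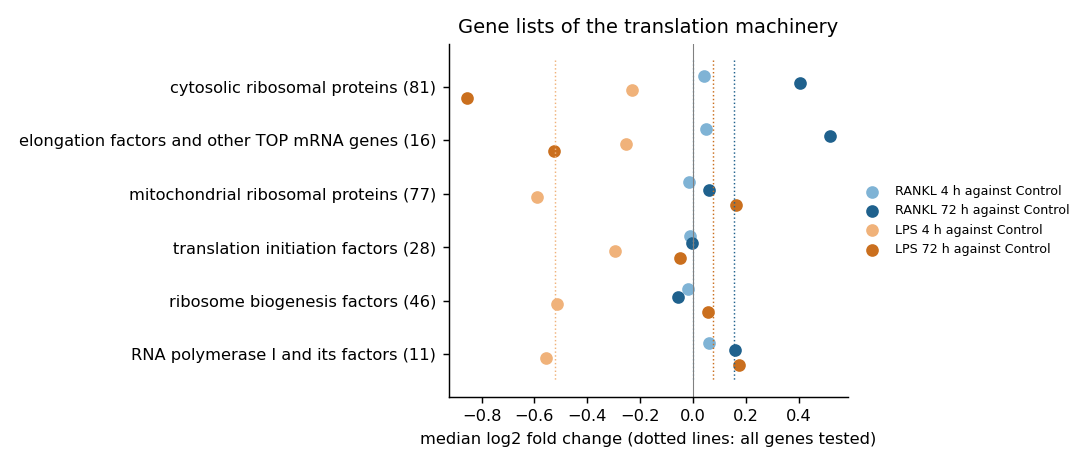
Median log2 fold change of the 81 cytosolic ribosomal protein genes and of 5 other gene lists against the same Control libraries, with the number of genes tested in brackets and the median of all genes tested as dotted lines. The cytosolic ribosomal protein genes and the TOP mRNA list lie at -0.86 and -0.53 after 72 h of LPS, and the other 4 lists between -0.05 and 0.17.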

How the data were processed

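The study made 15 mRNA libraries of macrophages with a SMARTer kit. The labels name StringTie and the builds GRCm38.p4 and mm10, and the aligner is not given in the sources used here. The deposited values are FPKM per gene, made by the authors from their reads. The table analysed here ends with an incomplete entry, which was left out, so genes that follow it are not analysed here. Rows of 20089 genes were used, and 11743 with a mean of at least 0.1 FPKM were tested.

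Log2(FPKM + 0.1) of all 5 groups (3 libraries each) was fitted in 1 model with limma 3.58.1 in R 4.3.3, with a variance trend; this scale understates the change of low genes. Whole fragments were recovered from the steps of the FPKM values (14485 genes, within 0.0001 of whole numbers), and gave the depth and a voom fit. The recovery and the fit were tested on simulated data. Python 3.11.15 with pandas 2.3.3 and matplotlib 3.10.9 did the rest.

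The members and lists were chosen with earlier results of these data known. Named were, in each comparison with Control, the 5 largest rises and falls past the thresholds, the 5 highest and lowest members, the paralogs and the members nearest the limit of 1 FPKM; others are named for their role or as counts of 5 or fewer. Same-numbered libraries deviated together in every pair among Control, both RANKL groups and the 4 h LPS group (correlations of 0.103 to 0.842 over 9486 genes). Their numbers may thus pair them, but libraries of different number were not compared. With LPS 72 h the correlations ran from -0.229 to 0.184. The main fit leaves such pairing out, and the replicate block takes it in. Alternatives were other pseudocounts, filters, scales, fits and each library left out.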

Additional observations from a re-analysis of the deposited data

Results flagged for a closer look

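The same stimulus gave different values at its 2 times. The 81 ribosomal protein genes were compared directly between 72 h and 4 h of LPS. At 72 h 43 were lower (limma, fold below 0.66 and unadjusted p under 0.05), against 14.3% of all genes tested. For RANKL, 8 (9.88%) were higher at 72 h than at 4 h, below the 20.1% of all genes tested. Between the stimuli at 72 h, 76 were higher with RANKL than with LPS, against 25.1% of all genes tested. Rpl7l1 was the exception in the LPS series, with a log2 fold change of 0.81 from 4 h to 72 h. No explanation of these differences was tested, and the 72 h groups have no culture of the same length without stimulus beside them.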

How the results depend on the processing

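In 8 comparisons and 136 alternative counts of changed members, 117 stayed within 1.5 times. After 72 h of RANKL the 9 became 4 when centred on the median gene, 23 at equal sums and 37 at equal sums over non-members; from 4 h to 72 h of RANKL the 8 became 3, 16 and 24. Centring turned the single call after 4 h of LPS (1 higher) and that between the stimuli at 4 h (1 lower), and from 4 h to 72 h of LPS gave 76. With the replicate block, which pairs the libraries by number, the count after 4 h of LPS was 2 (Rps27l and Rpl32l). No other count moved by over 1.5 times. Libraries of LPS 72 h did not deviate together throughout with those of the same number. Leaving out 1 library gave 8 to 14 (72 h of RANKL), 0 to 2 (4 h of LPS), 54 to 72 (72 h of LPS), 0 to 1 (stimuli at 4 h), 71 to 77 (stimuli at 72 h), 4 to 8 (RANKL times) and 26 to 66 (LPS times). Counts moved by over 1.5 times after 72 h of RANKL without Control replicate 2 or RANKL 72 h replicate 1 (14 each), after 4 h of LPS without Control replicate 2 (2) or LPS 4 h replicate 3 (0), between the stimuli at 4 h without LPS 4 h replicate 3 or RANKL 4 h replicate 1 (0 each), between the RANKL times without replicate 3 of RANKL 4 h (4) or of RANKL 72 h (5), and between the LPS times without LPS 72 h replicate 1 (26). Of 1088 values of named members 57 lost their call and 0 changed direction. As fragments the share was 2.91, 3.01, 3.91, 2.47 and 1.75% in Control, after RANKL (4 h, then 72 h) and after LPS (4 h, then 72 h), and without the 100 other most abundant genes 12.8, 13.3, 15.7, 11 and 7.98%. The cause of these shifts was not tested beyond the scale itself. Depth limits Rpl32l and Rpl39l most.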
